A study of Mus musculus with 12 samples.

Results

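The lysosome and autophagy genes of differentiating mouse embryonic stem cells were examined in a named set of 45 genes, taken as every probe set whose only gene symbol in the array annotation is 1 of the 45. Of these genes 44 had such a probe set, 110 probe sets together, among 18193 named genes and 45037 probe sets on the array. Cd63 had none and was not analysed here. The cells were CAG150 and HM1 embryonic stem cells at day 4 and at day 6 of neuronal differentiation, measured as total RNA on Affymetrix mouse arrays, and the 4 groups were CAG150 at day 4, HM1 at day 4, CAG150 at day 6 and HM1 at day 6, with 3 arrays in each. HM1 cells are Hprt-deficient and derive from a male mouse. The CAG150 cells carry expanded CAG repeats, which are known to lie in Htt, mutated in Huntington's disease, and the labels do not say whether they share the Hprt defect. There was 1 line of each kind, so genotype and line cannot be told apart. The labels do not say that samples within a group came from separate cultures, so the p-values cover only the spread among these samples, which may be technical.

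Lysosomes are acidic organelles in which hydrolases break down proteins, lipids, glycans and glycogen, and in neurons they also clear aggregation-prone proteins. Macroautophagy brings cytoplasm to them: kinase and lipid kinase complexes start a membrane sac, conjugation enzymes attach Atg8 family proteins to it, and cargo receptors link its load to those proteins. The transcription factors Tfeb and Tfe3 bind E-box sites with the core CACGTG in many lysosomal promoters and can raise lysosomal and autophagy genes together.

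Promoter sequences show where this core lies in the genes whose values are given below. Windows of 250 bases before to 50 bases after an annotated start were available from RefSeq (assembly GRCm38.p6) for 38 of the 45 genes, Cd63 among them, 47 windows in all. The core CACGTG, which reads the same on both strands, was present in 12 of the 38 genes (31.6%), against 8.09% of all 27025 genes with such a window. The longer TCACGTG, which contains the core and was searched on both strands, was present in 10 of the 38 genes (26.3%), against 4.29% of all genes. The core was present in 4 of 7 proteases (Ctsa, Ctsd, Ctsl and Lgmn) and in 3 of 4 conjugation enzymes (Atg3, Atg5 and Atg7). The core was also present in 3 of 6 membrane proteins (Lamp1, Mcoln1 and Cln3) and in 2 of 8 other hydrolases (Gaa and Glb1). None of the 4 Atg8 family genes, 4 initiation genes, 3 cargo receptors and 2 transcription factors with a window held the core. A match describes letters in a window and is not a binding site.

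The 250 bases before the start are printed for 4 genes with the core, Ctsd and Ctsl because they were lower in CAG150 cells, Gaa because it was higher at day 4, and Lamp1 because it held the most matches. The strand is that of the gene, the text runs 5′ to 3′, and capitals mark CACGTG.
Ctsd: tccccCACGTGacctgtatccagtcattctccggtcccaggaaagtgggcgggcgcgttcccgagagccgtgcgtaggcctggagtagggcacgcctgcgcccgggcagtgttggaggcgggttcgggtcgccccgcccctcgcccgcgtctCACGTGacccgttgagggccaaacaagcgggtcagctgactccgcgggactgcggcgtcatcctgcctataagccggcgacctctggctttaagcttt
Gaa: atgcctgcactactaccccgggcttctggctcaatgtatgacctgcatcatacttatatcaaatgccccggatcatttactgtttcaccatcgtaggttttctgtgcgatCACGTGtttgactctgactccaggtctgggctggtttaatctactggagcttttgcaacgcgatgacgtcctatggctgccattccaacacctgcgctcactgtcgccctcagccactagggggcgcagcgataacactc
Lamp1: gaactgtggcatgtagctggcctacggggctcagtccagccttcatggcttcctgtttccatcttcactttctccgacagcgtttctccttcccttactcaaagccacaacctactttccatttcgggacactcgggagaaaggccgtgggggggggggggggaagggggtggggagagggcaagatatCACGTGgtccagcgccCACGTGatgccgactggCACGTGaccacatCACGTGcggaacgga
Ctsl: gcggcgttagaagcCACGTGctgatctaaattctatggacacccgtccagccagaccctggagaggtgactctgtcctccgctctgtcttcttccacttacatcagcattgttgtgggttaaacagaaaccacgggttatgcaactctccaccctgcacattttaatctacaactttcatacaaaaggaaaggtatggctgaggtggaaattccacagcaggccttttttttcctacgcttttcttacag
The Ctsd stretch is chr7:142387828-142388077 on the minus strand and has 2 matches, which begin 245 and 98 bases before the start. The Gaa stretch is chr11:119267713-119267962 on the plus strand and has 1 match, 140 bases before the start. The Lamp1 stretch is chr8:13158911-13159160 on the plus strand and has 4 matches, 61, 45, 28 and 15 bases before the start. The Ctsl stretch is chr13:64370521-64370770 on the minus strand and has 1 match, 236 bases before the start. The Ctsd, Gaa and Lamp1 stretches lie just outside the gene, whereas the Ctsl stretch lies wholly within the gene as the annotation has it, whose outermost end is at base 64370772. Of the 12 windows with the core, 6 had their upstream stretch outside the gene.

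All values below are intensities on the authors' linear scale, and differences are of log2(intensity + 16), ± SE, which understates changes of dim genes. The threshold was an adjusted p of 0.05 in limma, with the adjustment made over the 12280 genes tested. Each gene is represented by its brightest probe set, and all 44 genes were above the intensity filter of 11.9. Array medians ranged from 19.2 to 25.9, and arrays of a group correlated at 0.990 to 0.993. The summed intensity of 10 neuronal markers was 11850.2 to 12719.9 in CAG150 and 7797 to 9021 in HM1 cells at day 6, and at day 4 it was 1884 to 2196 in CAG150 and 3196 to 3455 in HM1 cells. The single markers did not follow the sum at day 4: 7 of the 10 had positive differences in CAG150 cells, 4 passing as higher and 2 as lower, with a median of 0.23. Stmn2, named like the markers below after its values were seen, averaged 607 in CAG150 and 2108 in HM1 cells. At day 6 all 10 were positive and 8 passed as higher. Of 12 markers of macrophages and microglia, cells known for high lysosomal gene expression, 11 lay below the filter, and their sum was 60.6 to 108 on every array.

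At day 4 the question was whether these genes differed between the lines early in differentiation. In CAG150 cells 4 of the 44 genes were higher and 2 lower than in HM1 cells. The 4 were Gaa, Ulk2, Ppt1 and Wipi1, and the 2 were Tfe3 and Ctsd. Together this is 13.6% of the genes, against a background of 15.8% of all genes tested, and by direction the backgrounds are 7.87% higher and 7.92% lower. No overlap between the groups was seen for 14 of the 44 genes (31.8%), against 34.4% of all genes. The median difference of the 44 genes was 0.08, and that of all genes 0.01. By count, the set as a whole was close to the background.

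Gaa, acid alpha-glucosidase, which breaks down glycogen in the lysosome, had intensities of 264, 315 and 269 in CAG150 cells at day 4, against 194, 201 and 207 in HM1 cells. Every CAG150 array was above every HM1 array, by a log2 difference of 0.46 ± 0.09 SE (adjusted p = 0.0035). The other Gaa probe set differed by 0.19 ± 0.10 SE (adjusted p = 0.28) in the fit of all probe sets. Ppt1, palmitoyl-protein thioesterase, an enzyme lost in a childhood neuronal ceroid lipofuscinosis, had 525, 453 and 499 in CAG150 cells, against 358, 372 and 389 in HM1 cells. Again the groups did not overlap, and the difference was 0.38 ± 0.09 SE (adjusted p = 0.011). The other 7 hydrolases and cofactors did not pass at day 4, with differences from -0.04 (Hexa, a subunit of beta-hexosaminidase) to 0.28 (Glb1, beta-galactosidase).

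Among the genes that start autophagosomes, Ulk2, a kinase of the initiation complex, had 253, 245 and 237 in CAG150 cells, against 186, 188 and 165 in HM1 cells, with a difference of 0.42 ± 0.09 SE (adjusted p = 0.0058). Wipi1, a phosphoinositide-binding protein of the early sac, had 87.6, 88.4 and 80.7 in CAG150 cells, against 57.7, 71.6 and 57.1 in HM1 cells, with a difference of 0.38 ± 0.10 SE (adjusted p = 0.017). Neither gene had overlapping groups. The Wipi1 call was lost on leaving out any of 4 of the 6 arrays compared (adjusted p from 0.056 to 0.064): CAG150 replicates 1 and 2 and HM1 replicates 1 and 3. Ulk1, the close relative of Ulk2, went the other way without passing (-0.18 ± 0.09 SE, adjusted p = 0.23).

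The transcription factor Tfe3 was the gene that was lowest in CAG150 relative to HM1 cells at day 4. It had 163, 165 and 162 in CAG150 cells, against 295, 288 and 262 in HM1 cells, and every CAG150 array was below every HM1 array. The difference was -0.73 ± 0.14 SE (adjusted p = 0.0037). Its relative Tfeb had 25.7, 20.6 and 38.7 in CAG150 cells, against 31.8, 8.44 and 11.2 in HM1 cells. These groups overlapped, the values lie near the filter intensity, and the difference of 0.46 ± 0.25 SE (adjusted p = 0.24) did not pass. Ctsd, cathepsin D, the main aspartic protease of lysosomes, had 412, 417 and 471 in CAG150 cells, against 494, 537 and 618 in HM1 cells. The groups did not overlap and the difference was -0.33 ± 0.10 SE (adjusted p = 0.047). The call was lost without CAG150 replicate 1 or 2 or HM1 replicate 2 or 3 (adjusted p from 0.086 to 0.16). None of the 5 membrane proteins, 6 conjugation enzymes, 5 Atg8 family genes and 3 cargo receptors passed at day 4. The one of them nearest to passing was Gabarapl2 (0.28 ± 0.09 SE, adjusted p = 0.051).

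At day 6 all 8 lysosomal proteases of the set had negative differences by their brightest probe sets, and 3 of them passed. Cathepsins outside the set, described below, went both ways, with Ctso higher (0.63) and Ctsh lower (-0.84) in CAG150 cells. Of all 12280 genes tested 6176 had negative differences. Counting every probe set above the filter, Ctsb had 2 higher and 2 lower, and Ctsa 1 higher and 1 lower. In CAG150 cells 4 of the 44 genes were higher and 5 lower than in HM1 cells. The 4 were Gabarapl2, Ulk2, Atg4b and Nbr1, genes of autophagosome formation and cargo binding. The 5 were Ctsl, Ctsd and Tpp1, which are proteases, the hydrolase subunit Hexa and the membrane protein Lamp2. Together this is 20.5% of the genes, against a background of 21.4%, or 10.1% higher and 11.2% lower. No overlap between the groups was seen for 20 of the 44 genes (45.5%), against 38.6% of all genes, and the median difference was 0.05, against 0.00 for all genes. With quantile normalization 7 were higher and 5 lower, and with arrays centred on their medians 2 were higher and 5 lower.

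The median difference of the 8 proteases at day 6 was -0.32. Ctsl, cathepsin L, a cysteine protease, had 1452, 1638 and 1388 in CAG150 cells, against 2628, 2586 and 2681 in HM1 cells. Every CAG150 array was below every HM1 array, and the difference was -0.81 ± 0.09 SE (adjusted p = 5.3e-05). Ctsd had 371, 362 and 402 in CAG150 cells, against 503, 543 and 599.9 in HM1 cells, again without overlap, and the difference was -0.52 ± 0.10 SE (adjusted p = 0.0034). These were the only genes of the 9 that passed under every alternative setting run. Tpp1, tripeptidyl-peptidase, which is lost in another neuronal ceroid lipofuscinosis, had 706, 716 and 709 in CAG150 cells, against 908, 928 and 829 in HM1 cells, a difference of -0.31 ± 0.09 SE (adjusted p = 0.026). It was lost on leaving out any of 5 of the 6 arrays, all but HM1 replicate 3 (adjusted p from 0.055 to 0.084). The other 5 proteases were Ctsc (-0.50, adjusted p = 0.14), Ctsz (-0.33), legumain Lgmn (-0.30), Ctsb (-0.17) and Ctsa (-0.10), and none of them passed.

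Hexa, the alpha subunit of beta-hexosaminidase, which degrades GM2 ganglioside, had 229.6, 178 and 211 in CAG150 cells at day 6, against 318, 364 and 334 in HM1 cells. The groups did not overlap, and the difference was -0.68 ± 0.19 SE (adjusted p = 0.025). Without CAG150 replicate 2 or 3 or HM1 replicate 2 or 3 the adjusted p was 0.057 to 0.084. Lamp2, a major glycoprotein of the lysosomal membrane, had 985, 796 and 848 in CAG150 cells, against 1069, 1074 and 1070.4 in HM1 cells, without overlap. The difference was -0.29 ± 0.09 SE (adjusted p = 0.039), and it was lost without any of 5 of the 6 arrays, all but CAG150 replicate 1 (adjusted p from 0.084 to 0.13). Another Lamp2 probe set had 239, 213 and 221 in CAG150 cells, against 343, 376 and 349 in HM1 cells, and differed by -0.63 ± 0.09 SE (adjusted p = 0.00049) in a fit of all 27022 probe sets. By their brightest probe sets the other 4 membrane proteins, Lamp1, Scarb2, Cln3 and Mcoln1, had differences from 0.02 to 0.24 and did not pass. Another probe set of Scarb2 passed as lower and another of Mcoln1 as higher, with values given below.

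Markers of other cell types differed in the same comparison. Of 14 markers of primitive and visceral endoderm, cells known for strong endocytosis and lysosomal activity, 8 were tested, all 8 had negative differences and 4 were lower in CAG150 cells at day 6, and the sum of the list was 337 to 421 in CAG150 and 821 to 869 in HM1 cells. The defining markers Afp, Ttr, Apoa1, Apob, Amn and Sox7 lay below the filter. At day 4 the endoderm sum was 556 to 643 in CAG150 and 1119 to 1562 in HM1 cells, with 6 of the 8 negative and 3 lower. Lrp2 made up much of it, with a mean of 434 in CAG150 and 1069.6 in HM1 cells. Of 12 fibroblast and smooth muscle markers 8 were tested and 4 were lower at each day. All 8 differences were negative at day 6, whereas at day 4 there were 5 negative and 3 positive differences, none of the positive ones passing. The sum of the list at day 6 was 301 to 352 in CAG150 and 4592 to 5544 in HM1 cells, and at day 4 it was 492 to 557 in CAG150 and 3018 to 3569 in HM1 cells. Most of it came from Acta2, with a mean at day 4 of 249.3 in CAG150 and 1608 in HM1 cells, and Tagln, with 63.9 in CAG150 and 1382 in HM1 cells. Of 10 markers of pluripotent cells all 10 had negative differences at each day and 7 were lower in CAG150 cells, with a median of -0.78 at day 6 and -1.12 at day 4. Their sum at day 6 was 1004 to 1097 in CAG150 and 2365 to 2688 in HM1 cells, and at day 4 it was 581 to 642 in CAG150 and 1705 to 1875 in HM1 cells. The part of these markers' cells in the differences of the proteases, Hexa and Lamp2 was not tested. In whole-culture RNA, fewer cells of a type and less RNA per cell cannot be told apart.

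Of the genes higher at day 6, Gabarapl2, an Atg8 family member, had 1575, 1491 and 1525 in CAG150 cells, against 991, 1113 and 1171 in HM1 cells, and the difference was 0.48 ± 0.09 SE (adjusted p = 0.002). Ulk2 had 614, 539 and 608 in CAG150 cells, against 442, 396 and 409 in HM1 cells, with a difference of 0.48 ± 0.09 SE (adjusted p = 0.0017). For both genes every CAG150 array was above every HM1 array. Atg4b, the protease that trims Atg8 proteins before they are attached, had 443, 419 and 451 in CAG150 cells, against 333, 344 and 372 in HM1 cells. The difference was 0.31 ± 0.08 SE (adjusted p = 0.012), and its adjusted p was 0.051 without CAG150 replicate 3 and without HM1 replicate 1. Nbr1, a cargo receptor for ubiquitinated load, had 1234, 1249.9 and 1268 in CAG150 cells, against 1068, 1053 and 1039 in HM1 cells. Its difference of 0.24 ± 0.07 SE (adjusted p = 0.029) was lost on leaving out any of the 6 arrays (adjusted p from 0.059 to 0.087). The receptor Sqstm1 (p62) had a difference of 0.30 ± 0.10 SE (adjusted p = 0.058) and Becn1, a core protein of the lipid kinase complex, one of 0.29 ± 0.10 SE (adjusted p = 0.058), and both missed the threshold. Tfeb (-0.23 ± 0.25 SE, adjusted p = 0.56) and Tfe3 (-0.27 ± 0.14 SE, adjusted p = 0.2) did not pass at day 6 either.

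**Figure D1:**
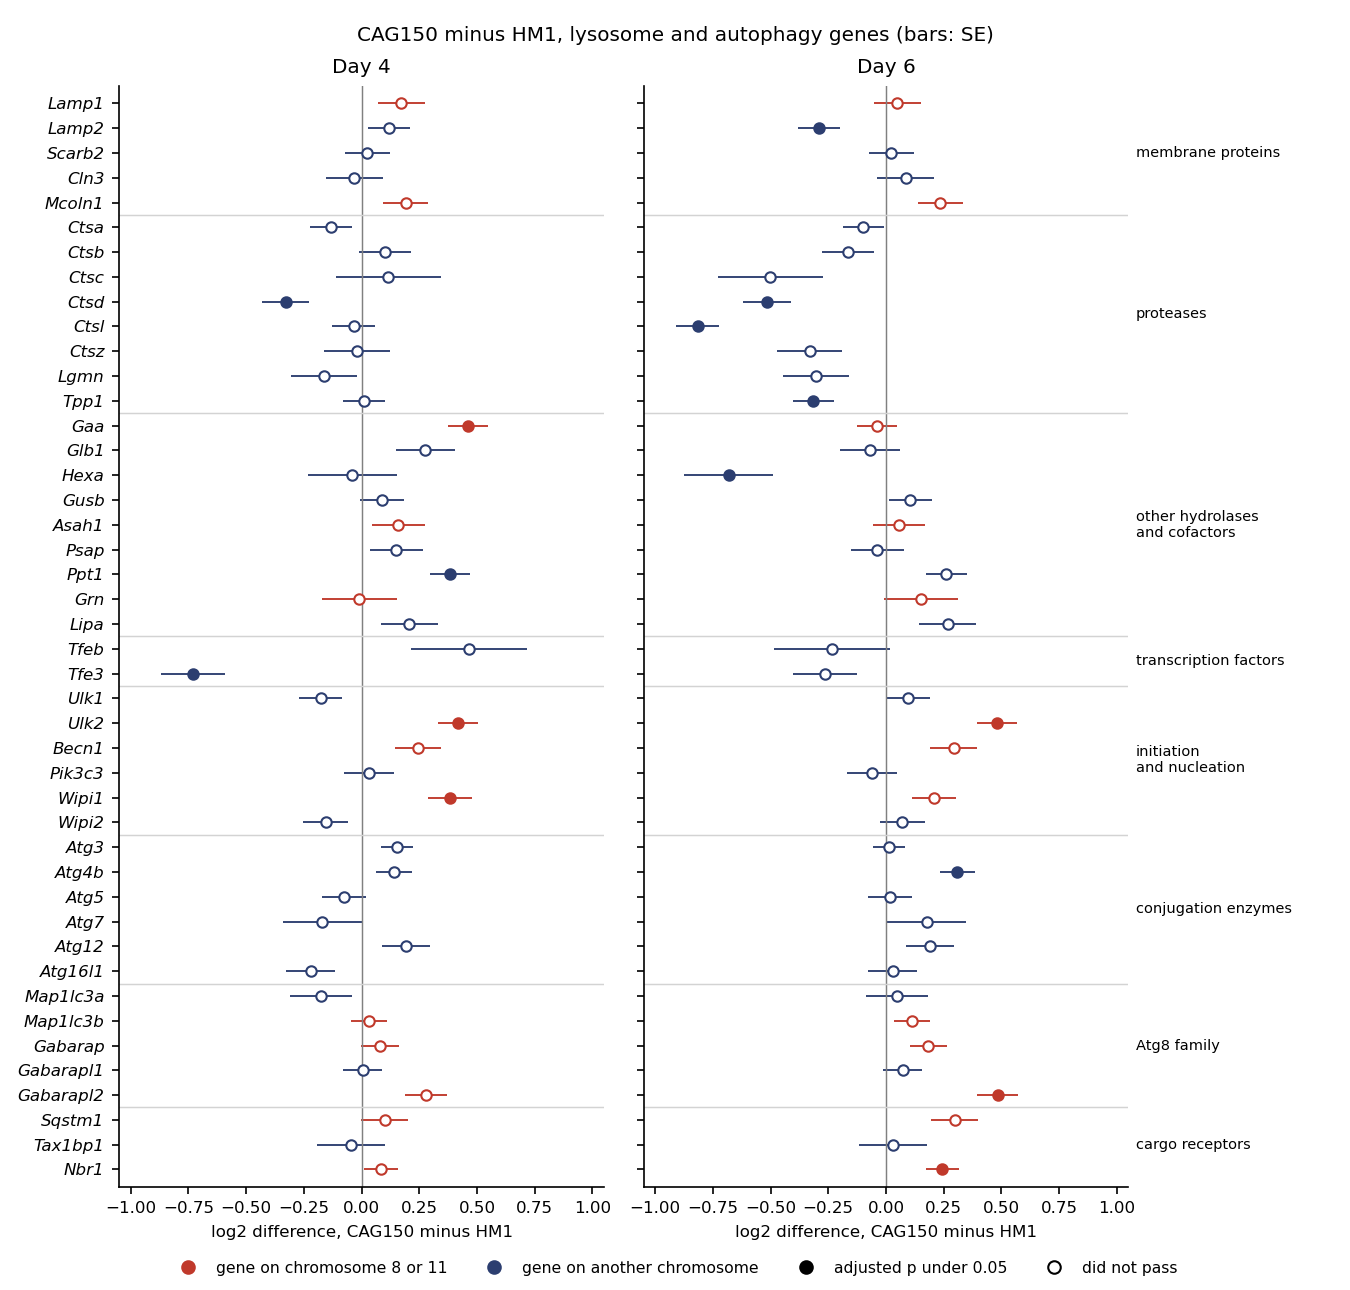
Log2 differences (CAG150 minus HM1, horizontal axis, of log2(intensity + 16)) of the 44 genes at day 4 and day 6, grouped by role. Points are the fitted differences, bars are ± SE and filled points passed at an adjusted p under 0.05. At day 6 all 8 proteases, each by its brightest probe set, lie left of 0, down to -0.81 for Ctsl.

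**Figure D2:**
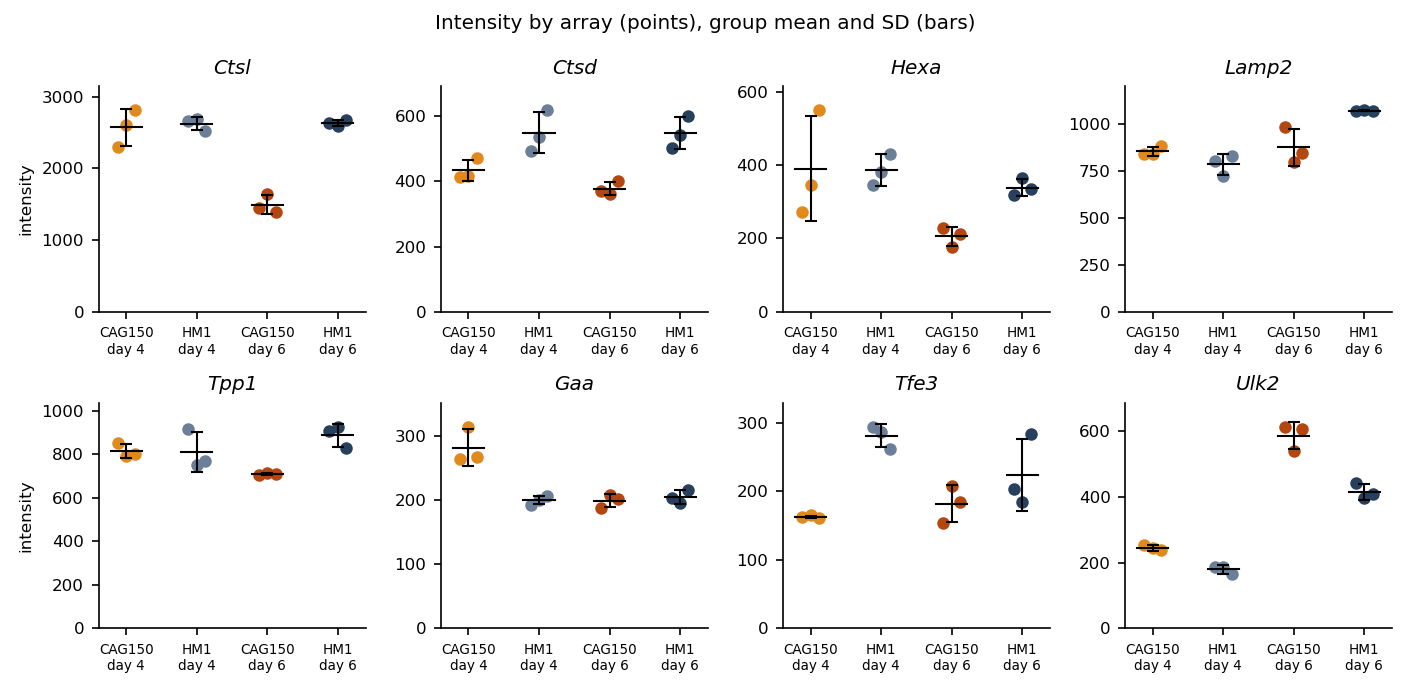
Intensity (linear scale, from 0) on each array of Ctsl, Ctsd, Hexa, Lamp2, Tpp1, Gaa, Tfe3 and Ulk2, which passed between the lines. Gabarapl2, Ppt1 and Wipi1 passed with larger differences than Lamp2 and Tpp1 and are not shown. Points are arrays, lines and bars the mean ± SD of 3 arrays, with CAG150 left of HM1 at each day. Ctsl was close in the lines at day 4 (2302, 2600.3 and 2811 in CAG150 and 2657, 2695 and 2523 in HM1 cells) and apart at day 6.

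The differences between the lines varied with the chromosome a gene lies on. Over all genes tested, the median difference between CAG150 and HM1 cells was 0.20 on chromosome 8 and 0.17 on chromosome 11 at day 4, and 0.24 and 0.23 at day 6, whereas on the other 17 autosomes the medians ran from -0.06 to 0.00 at the 2 days. Of the 44 genes, 13 lie on these chromosomes: Asah1, Gabarapl2, Lamp1, Map1lc3b and Mcoln1 on chromosome 8, and Becn1, Gaa, Gabarap, Grn, Nbr1, Sqstm1, Ulk2 and Wipi1 on chromosome 11. At each day 12 of the 13 had a positive difference. For all 1678 genes of the 2 chromosomes the positive share was 78.7% at day 4 and 79.9% at day 6. The median of the 13 was 0.17 at day 4 and 0.21 at day 6, against 0.18 and 0.23 for all 1678 genes. The other 31 genes had medians of 0.00 and 0.01. At day 4 they held 1 of the genes that were higher (Ppt1) and both that were lower, and at day 6 they held 1 that was higher (Atg4b) and all 5 that were lower. What made the 2 chromosomes differ between the lines was not tested. With each array centred on the median of each chromosome, Ulk2 was no longer called at either day (adjusted p of 0.15 at day 4 and 0.14 at day 6), Gabarapl2 was at 0.23 (adjusted p = 0.10) and Nbr1 at -0.016 (adjusted p = 0.92) at day 6, and at day 4 Ctsd was at -0.29 (adjusted p = 0.091) and Wipi1 at 0.19 (adjusted p = 0.21). Gaa still passed at day 4, at 0.27 (adjusted p = 0.046). Ctsl, at -0.74 (adjusted p = 0.00016), and Ctsd, at -0.46 (adjusted p = 0.0088), still passed at day 6, while Tpp1 and Lamp2, which lie on chromosomes 7 and X, did not, at -0.26 and -0.24 (adjusted p = 0.09 each).

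From day 4 to day 6 the initiation kinases Ulk1 and Ulk2, Atg12 and 4 of the 5 Atg8 family genes rose in both lines, and the lysosomal enzymes Gusb and Ctsz fell in both. In CAG150 cells 14 of the 44 genes rose and 6 fell, 45.5% against a background of 44.4% of all genes tested, or 22.5% higher and 21.9% lower. In HM1 cells 17 rose and 3 fell, again 45.5%, against a background of 38.9%, or 20.4% higher and 18.5% lower. With arrays centred on their medians the HM1 counts were 8 higher and 5 lower, a setting that shifts the median of all genes by -0.10. It ended the HM1 calls of 9 genes, Ppt1, Atg4b, Wipi1, Ctsa, Nbr1, Ulk1, Atg3, Sqstm1 and Scarb2. The days did not overlap for 25 of the 44 genes in CAG150 cells, against 55.0% of all genes, and for 21 in HM1 cells, against 49.1%. The median change of the 44 genes was 0.06 in CAG150 and 0.16 in HM1 cells, against 0.00 and 0.00 for all genes. Of 10 neuronal markers 10 rose in CAG150 and 9 in HM1 cells, and of 10 neural progenitor markers 9 rose in each line, and their part in these changes was not tested.

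The Atg8 family, the ubiquitin-like proteins that coat autophagosome membranes, had positive changes in all 5 members in both lines. All 5 members passed in CAG150 cells, with a median change of 0.70, and 4 of 5 in HM1 cells, with a median of 0.55. By comparison, 22.5% of all genes tested rose in CAG150 and 20.4% in HM1 cells. Gabarap had 3080.1, 3362 and 3137 at day 6 in CAG150 cells, against 1777, 1891 and 1873 at day 4, a change of 0.78 ± 0.08 SE (adjusted p = 8.7e-06). In HM1 cells it had 2769, 2757 and 2896 at day 6, against 1637, 1911 and 1709 at day 4, a change of 0.68 ± 0.08 SE (adjusted p = 3.7e-05). In neither line did the days overlap. Gabarapl2 changed by 0.75 ± 0.09 SE (adjusted p = 2.3e-05) in CAG150 and by 0.55 ± 0.09 SE (adjusted p = 0.00039) in HM1 cells, and Gabarapl1 by 0.70 ± 0.09 SE (adjusted p = 2.9e-05) in CAG150 and by 0.64 ± 0.09 SE (adjusted p = 8.7e-05) in HM1 cells. Map1lc3b, the LC3 protein most used as an autophagosome marker, changed by 0.55 ± 0.08 SE (adjusted p = 1.0e-04) in CAG150 and by 0.47 ± 0.08 SE (adjusted p = 0.00043) in HM1 cells. Map1lc3a was the exception, with 0.58 ± 0.13 SE (adjusted p = 0.0036) in CAG150 and 0.35 ± 0.13 SE (adjusted p = 0.053) in HM1 cells, which missed the threshold.

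Ulk2 had the largest rise among the 44 genes in each line. It had 614, 539 and 608 at day 6 in CAG150 cells, against 253, 245 and 237 at day 4, a change of 1.21 ± 0.09 SE (adjusted p = 3.1e-07). In HM1 cells it had 442, 396 and 409 at day 6, against 186, 188 and 165 at day 4, a change of 1.14 ± 0.09 SE (adjusted p = 7.0e-07). The days were far apart in both lines. Ulk1 rose by 0.67 ± 0.09 SE (adjusted p = 9.1e-05) in CAG150 and by 0.40 ± 0.09 SE (adjusted p = 0.005) in HM1 cells. Atg12, the ubiquitin-like protein joined to Atg5, rose by 0.69 ± 0.10 SE (adjusted p = 0.00017) in CAG150 and by 0.69 ± 0.10 SE (adjusted p = 0.00022) in HM1 cells. Atg4b rose by 0.52 ± 0.08 SE (adjusted p = 0.00015) in CAG150 and by 0.35 ± 0.08 SE (adjusted p = 0.0033) in HM1 cells. Of the cargo receptors, Sqstm1 rose by 0.48 ± 0.10 SE (adjusted p = 0.002) in CAG150 and by 0.29 ± 0.10 SE (adjusted p = 0.042) in HM1 cells, and Nbr1 by 0.38 ± 0.07 SE (adjusted p = 0.0009) in CAG150 and by 0.22 ± 0.07 SE (adjusted p = 0.028) in HM1 cells. Tax1bp1 did not pass in either line, at 0.29 in CAG150 and 0.21 in HM1 cells. By their brightest probe sets, the lipid kinase Pik3c3, its partner Becn1 and the conjugation enzymes Atg5, Atg7 and Atg16l1 did not pass in either line. The changes ran from 0.00 to 0.12 in CAG150 and from -0.34 to 0.13 in HM1 cells. In the fit of all probe sets another Becn1 probe set passed as higher in CAG150 cells, with 927, 943 and 1003 at day 6, against 732, 722 and 725 at day 4. In HM1 cells 1 other probe set of Atg5 and 1 of Tax1bp1 passed as higher. Calls in HM1 cells of Atg3 (0.20), Wipi1 (0.29) and Wipi2 (-0.27) lay at the edge of the threshold. Leaving out 1 array at a time ended the call of Atg3 for 6, of Wipi1 for 4 and of Wipi2 for 6 of the 6 arrays. The HM1 calls of Sqstm1 and Nbr1 ended for 4 and 5 of them.

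Lysosomal genes went both ways with time. Psap, the precursor of the saposins that help degrade sphingolipids, had 1011, 1148 and 1206 at day 6 in CAG150 cells, against 657, 671 and 686 at day 4, a rise of 0.72 ± 0.12 SE (adjusted p = 0.00026). In HM1 cells it had 1248, 1004 and 1208 at day 6, against 667, 516 and 638 at day 4, a rise of 0.91 ± 0.12 SE (adjusted p = 5.3e-05). Gusb, beta-glucuronidase, had 72.0, 84.4 and 69.6 at day 6 in CAG150 cells, against 187, 176 and 169 at day 4, a change of -1.08 ± 0.09 SE (adjusted p = 1.8e-06). In HM1 cells it had 66.8, 63.3 and 76.5 at day 6, against 152, 174 and 170.1 at day 4, a change of -1.10 ± 0.09 SE (adjusted p = 2.2e-06). It was among the genes that fell in both lines, with no overlap of the days. Ctsz, cathepsin Z, also fell in both, with 439, 421 and 478 at day 6 in CAG150 cells, against 1002, 1046 and 1032 at day 4 (-1.18 ± 0.14 SE, adjusted p = 2.8e-05). In HM1 cells it had 462, 592 and 656 at day 6, against 843, 1097 and 1220.0 at day 4 (-0.87 ± 0.14 SE, adjusted p = 0.00042). Scarb2, the membrane protein that carries glucocerebrosidase to lysosomes, rose by 0.37 ± 0.10 SE (adjusted p = 0.0076) in CAG150 and by 0.37 ± 0.10 SE (adjusted p = 0.0089) in HM1 cells by its brightest probe set. The other Scarb2 probe set averaged 121 at day 6 and 123 at day 4 in CAG150 cells, and 177 at day 6 and 117 at day 4 in HM1 cells. With the mean of probe sets the CAG150 call of Scarb2 was lost (adjusted p = 0.083). Ctsa rose by 0.28 ± 0.09 SE (adjusted p = 0.023) in CAG150 and by 0.25 ± 0.09 SE (adjusted p = 0.046) in HM1 cells. Leaving out 1 array at a time ended these calls for 4 of 6 arrays in CAG150 and 5 of 6 in HM1 cells. The proteases Tpp1 and Ctsb did not pass in either line by their brightest probe sets. In the fit of all probe sets 1 of 2 for Tpp1 passed as higher in HM1 cells, and 1 of 4 for Ctsb in CAG150 cells.

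Besides Map1lc3a, Atg3, Wipi1 and Wipi2, further genes passed in only 1 of the lines, which by itself does not show a difference between them. In CAG150 cells Hexa (-0.82 ± 0.19 SE, adjusted p = 0.004), Ctsl (-0.78 ± 0.09 SE, adjusted p = 2.6e-05), Ctsc (-0.76 ± 0.23 SE, adjusted p = 0.016) and Gaa (-0.47 ± 0.09 SE, adjusted p = 0.00079) fell with time. The changes in HM1 cells were -0.18, 0.00, -0.15 and 0.03, and none passed. Ctsc, cathepsin C, had 19.4, 15.7 and 14.5 at day 6 in CAG150 cells, against 29.8, 55.6 and 34.8 at day 4. Its call was lost without CAG150 day 4 replicate 2 (adjusted p = 0.073) and it fell below a filter at the 60th percentile. In HM1 cells Lamp2 rose by 0.44 ± 0.09 SE (adjusted p = 0.0022) and Ppt1 by 0.33 ± 0.09 SE (adjusted p = 0.01), with 0.03 and 0.21 in CAG150 cells. Tfeb changed by -0.32 ± 0.25 SE (adjusted p = 0.33) in CAG150 and 0.38 ± 0.25 SE (adjusted p = 0.26) in HM1 cells, and Tfe3 by 0.14 ± 0.14 SE (adjusted p = 0.45) in CAG150 and -0.33 ± 0.14 SE (adjusted p = 0.08) in HM1 cells. None of these 4 values passed.

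**Figure D3:**
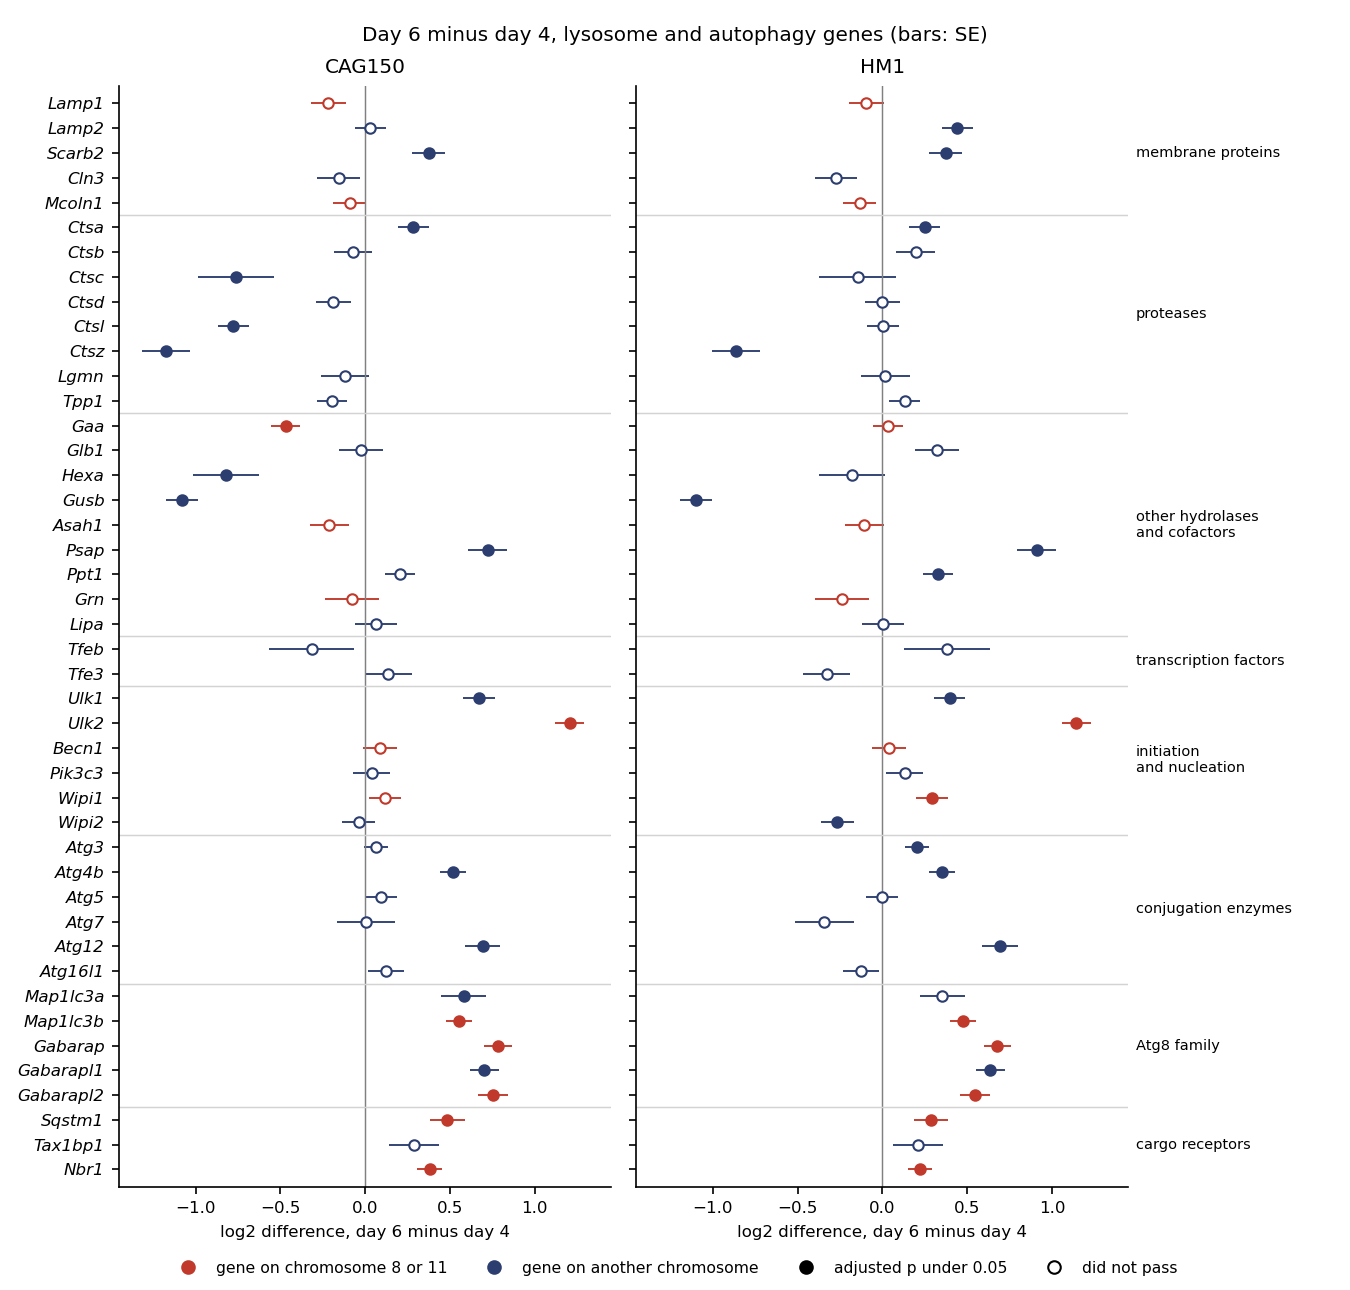
Log2 differences (day 6 minus day 4, horizontal axis, of log2(intensity + 16)) of the 44 genes in CAG150 and in HM1 cells, grouped by role. Points are the fitted differences, bars are ± SE and filled points passed at an adjusted p under 0.05. The Atg8 family lies right of 0 in both lines, with medians of 0.70 in CAG150 and 0.55 in HM1 cells.

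**Figure D4:**
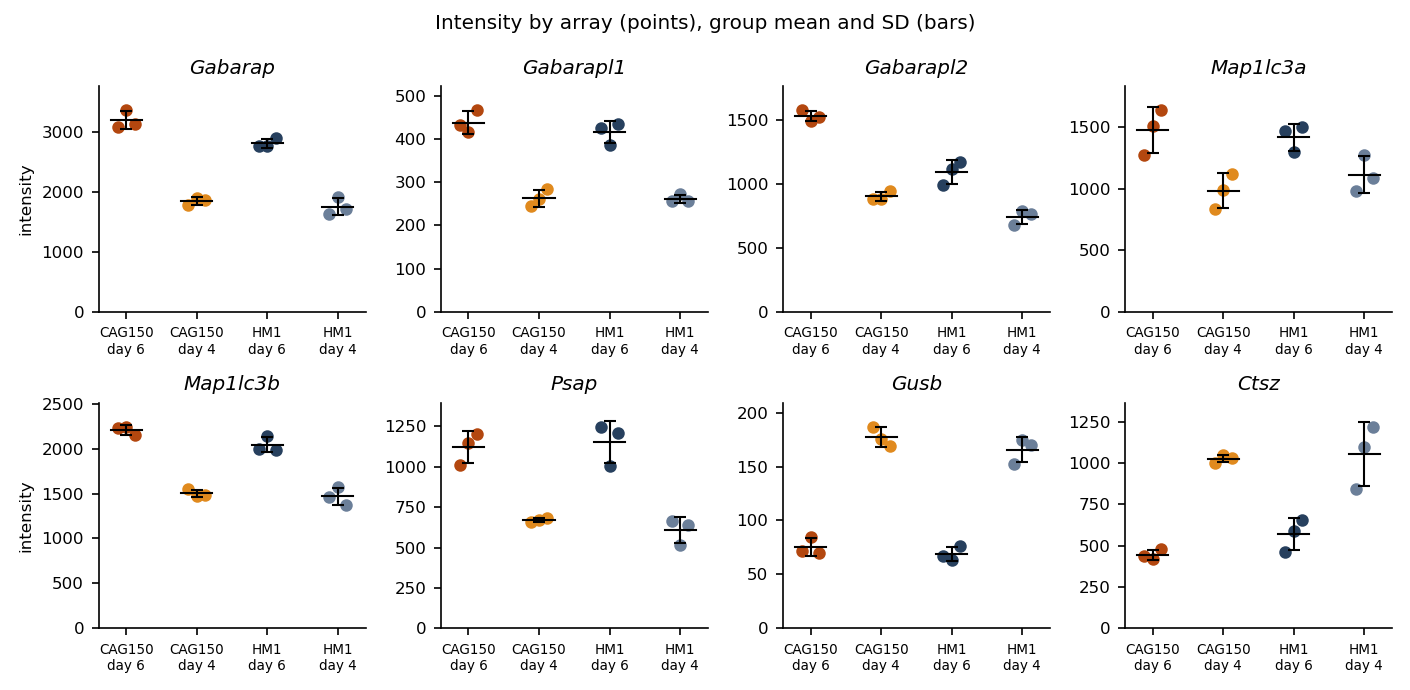
Intensity (linear scale, from 0) on each array of the 5 Atg8 family genes and of Psap, Gusb and Ctsz. Points are arrays, lines and bars the mean ± SD of 3 arrays, with day 6 left of day 4 in each line. Gusb and Ctsz are lower at day 6 in both lines, and the other 6 genes are higher in group mean.

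The interaction of line and day tests whether the change with time differed between the lines. It passed for 2 of the 44 genes, both negative, which is 4.55% against a background of 3.61% of all genes, or 1.58% higher and 2.03% lower. Ctsl had 1452, 1638 and 1388 at day 6 in CAG150 cells, against 2302, 2600.3 and 2811 at day 4, while HM1 cells had 2628, 2586 and 2681 at day 6, against 2657, 2695 and 2523 at day 4. Its level was lower at day 6 in CAG150 cells and overlapped between the days in HM1 cells. The interaction was -0.78 ± 0.13 SE (adjusted p = 0.0058), and it passed without each of the 12 arrays (adjusted p from 0.0046 to 0.02). Gaa had 188, 208 and 202 at day 6 in CAG150 cells, against 264, 315 and 269 at day 4, while HM1 cells had 204, 196 and 216 at day 6, against 194, 201 and 207 at day 4. Its interaction of -0.50 ± 0.12 SE (adjusted p = 0.043) was lost without any 1 of the 12 arrays (adjusted p from 0.053 to 0.0997). The other Gaa probe set averaged 151 at day 6 and 177 at day 4 in CAG150 cells, and 134 at day 6 and 153 at day 4 in HM1 cells. Its interaction was -0.04 ± 0.15 SE (adjusted p = 0.96), and with the mean of both probe sets the Gaa interaction was -0.27 (adjusted p = 0.27). The interactions of Hexa (-0.64 ± 0.27 SE, adjusted p = 0.26) and of the gene-level Lamp2 (-0.41 ± 0.13 SE, adjusted p = 0.12) did not pass. The other Lamp2 probe set named above had an interaction of -0.64 ± 0.12 SE (adjusted p = 0.022) in the fit of all probe sets, where 1.54% of probe sets passed. Of the 8 proteases 7 had negative interactions, with a median of -0.29. Of all 12280 genes 6306 had negative interactions, with a median of -0.01.

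Most genes could be read from more than 1 probe set. Of the 44 genes 29 had several probe sets above the filter, 94 in all. Probe sets of a gene pointed both ways for 8 genes at day 4, 13 at day 6, 11 for the change with time in CAG150 cells and 4 in HM1 cells. For the genes that passed, the other probe sets had the sign of the one used in 9 of 9 cases at day 4 and 9 of 9 at day 6, 2 and 3 of them passing on their own, where 10.2% and 14.5% of all probe sets passed. For the change with time this held for 16 of 18 in CAG150 cells (13 passing, background 33.5%) and 27 of 27 in HM1 cells (16 passing, background 27.8%). The exceptions in CAG150 cells were Scarb2 and Ctsa. Ulk2 rose on all 3 of its probe sets in both lines. The other 15 genes rest on 1 probe set each, among them Ctsl, Ctsd, Tfe3, Hexa, Gabarap, Sqstm1, Ctsc and Atg3. Several genes that did not pass by their brightest probe set did so by another at day 6. For Map1lc3b 2 other probe sets were higher in CAG150 cells (0.40 and 0.37), as was 1 each for Becn1 (0.44 ± 0.08 SE, adjusted p = 0.0038) and Mcoln1 (0.38 ± 0.10 SE, adjusted p = 0.027), all on chromosomes 8 and 11. Scarb2 had a second probe set that was lower at day 6, at -0.49 ± 0.10 SE (adjusted p = 0.0065), against 0.02 by the brightest. One Atg5 probe set was higher in CAG150 cells at day 4, at 0.55 ± 0.14 SE (adjusted p = 0.03), against -0.08 by the brightest.

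Genes with and without the promoter core can be set side by side as a description. At day 6, of the 12 measured genes with CACGTG in a window 0 were higher and 2 lower in CAG150 cells (Ctsl and Ctsd), with a median of -0.01, and of the 25 measured genes with a window without it 4 were higher and 3 lower, with a median of 0.10. Over all genes tested 10.1% were higher and 11.2% lower. For the change with time in CAG150 cells, 1 rose and 2 fell of the 12, with a median of -0.11, while 11 rose and 4 fell of the 25, with a median of 0.21, where 22.5% of all genes rose and 21.9% fell. In HM1 cells 2 rose and 0 fell of the 12, and 14 rose and 3 fell of the 25, with medians of 0.00 for the 12 and 0.29 for the 25, where 20.4% of all genes rose and 18.5% fell. At day 4, 1 was higher and 1 lower of the 12, and 3 were higher and 1 lower of the 25, against 7.87% and 7.92% of all genes.

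Wider lists of the pathway, which include none of the 45 genes, were read in the same fit. Of all genes tested, 7.87% were higher and 7.92% lower in CAG150 cells at day 4, and 10.1% and 11.2% at day 6. With time, 22.5% rose and 21.9% fell in CAG150 cells, and 20.4% and 18.5% in HM1 cells. These shares are the background for every wider list. Among other lysosomal enzymes and cofactors, 27 of 34 tested, 4 were higher and 0 lower in CAG150 cells at day 4, and 5 higher and 4 lower at day 6, with medians of 0.09 and 0.06. The 11 of them on chromosomes 8 and 11 had a median of 0.28 at day 4, and the other 16 one of -0.04. Ctsh, cathepsin H, averaged 18.8 ± 3.55 in CAG150 and 46.7 ± 9.90 in HM1 cells at day 6 (SD, n = 3 each), a difference of -0.84 ± 0.14 SE (adjusted p = 0.0013). Gla, alpha-galactosidase A, averaged 69.0 ± 5.11 in CAG150 and 115 ± 8.97 in HM1 cells, a difference of -0.62 ± 0.09 SE (adjusted p = 0.00029). Ifi30, a lysosomal thiol reductase, differed by -0.59 ± 0.10 SE (adjusted p = 0.00089). These 3 were lower in CAG150 cells, like Ctsl and Ctsd, whereas the cathepsin Ctso was higher, at 0.63 ± 0.12 SE (adjusted p = 0.0025). The interaction passed for Ctsh (-0.94 ± 0.20 SE, adjusted p = 0.025) and Gla (-0.56 ± 0.12 SE, adjusted p = 0.025). With time, 6 of the 27 rose and 5 fell in CAG150 cells, and 10 rose and 4 fell in HM1 cells. Ids, iduronate sulfatase, rose by 0.96 ± 0.09 SE (adjusted p = 2.8e-06) in CAG150 cells, and Ifi30 fell in both lines, with changes of -1.08 ± 0.10 SE (adjusted p = 2.1e-06) in CAG150 and -0.76 ± 0.10 SE (adjusted p = 5.1e-05) in HM1 cells.

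Of 18 subunits of the V-ATPase, the proton pump that acidifies lysosomes, 17 were tested. With time 8 rose and 0 fell in CAG150 cells, where all 17 differences were positive, and 7 rose and 0 fell in HM1 cells. The median change was 0.29 in CAG150 and 0.24 in HM1 cells. Atp6v1g2, a brain form of a pump subunit, changed by 0.88 ± 0.14 SE (adjusted p = 0.00024) in CAG150 and 0.80 ± 0.14 SE (adjusted p = 0.00066) in HM1 cells. Between the lines, 1 was higher and 2 lower in CAG150 cells at day 4, and 2 higher and 2 lower at day 6, with medians of -0.13 and -0.09. Atp6v1b2, which was higher at both days, lies on chromosome 8. Atp6v0e was lower at both days, with differences of -0.55 ± 0.08 SE (adjusted p = 0.00056) at day 4 and -0.38 ± 0.08 SE (adjusted p = 0.0052) at day 6. Of 24 other membrane and sorting proteins 21 were tested. In CAG150 cells 1 was higher and 1 lower at day 4, and 0 were higher and 3 lower at day 6, among them Npc1, a lysosomal cholesterol transporter, at -0.39 ± 0.11 SE (adjusted p = 0.028). The gene higher at day 4, Vps35, lies on chromosome 8, and the lower one, Cd68, on chromosome 11. Gnptab, the enzyme that tags hydrolases with mannose phosphate for lysosomal delivery, fell with time, with -0.73 ± 0.08 SE (adjusted p = 1.6e-05) in CAG150 and -0.51 ± 0.08 SE (adjusted p = 0.00036) in HM1 cells.

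Of 32 other autophagy genes 30 were tested, and 9 rose and 2 fell with time in CAG150 cells, and 9 rose and 1 fell in HM1 cells. Of all genes tested 22.5% rose and 21.9% fell in CAG150 cells, and 20.4% and 18.5% in HM1 cells. The median change of the 30 genes was 0.22 in CAG150 and -0.02 in HM1 cells. Trp53inp2, a nuclear and autophagosomal protein that binds Atg8 proteins, averaged 460.1 ± 12.7 at day 6 and 85.8 ± 7.94 at day 4 in CAG150 cells (SD, n = 3 each), a rise of 2.23 ± 0.10 SE (adjusted p = 8.8e-09). In HM1 cells it averaged 349 ± 43.6 at day 6 and 134 ± 12.7 at day 4, a rise of 1.28 ± 0.10 SE (adjusted p = 1.4e-06), and its interaction was 0.95 ± 0.15 SE (adjusted p = 0.0036). Relative to HM1 it was lower in CAG150 cells at day 4 (-0.56 ± 0.10 SE, adjusted p = 0.0033) and higher at day 6 (0.39 ± 0.10 SE, adjusted p = 0.019). Trp53inp1 was lower in CAG150 cells at day 4 (-0.36 ± 0.09 SE, adjusted p = 0.021) and day 6 (-0.55 ± 0.09 SE, adjusted p = 0.0013). Atg14 was lower at day 4 (-0.29, adjusted p = 0.044). At day 6 Vamp8 was lower (-0.29, adjusted p = 0.035) and Atg9a higher (0.40, adjusted p = 0.029). Rb1cc1, the scaffold of the Ulk kinase complex, rose by 0.93 ± 0.15 SE (adjusted p = 0.00024) in CAG150 and 0.63 ± 0.15 SE (adjusted p = 0.0046) in HM1 cells. Of 24 regulators of mTORC1 and Tfeb, the nutrient kinase complex and the factor it holds in the cytoplasm, 23 were tested. In CAG150 cells 2 were higher and 2 lower at day 4, and 0 were higher and 4 lower at day 6, with medians of -0.05 and 0.02. The 2 higher at day 4, Fnip1 and Flcn, lie on chromosome 11. Rragd, a Rag GTPase that recruits mTORC1 to lysosomes, was lower at both days, with -0.39 ± 0.08 SE (adjusted p = 0.0049) at day 4 and -0.39 ± 0.08 SE (adjusted p = 0.0036) at day 6, and fell with time in both lines (-0.63 in CAG150 and -0.63 in HM1 cells). At day 6 Deptor, an mTOR inhibitor, was also lower in CAG150 cells (-0.61 ± 0.13 SE, adjusted p = 0.0068), as were Mitf, a relative of Tfeb (-0.34 ± 0.09 SE, adjusted p = 0.021), and Rragc (-0.28 ± 0.08 SE, adjusted p = 0.032).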

How the data were processed

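Expression was measured on 12 Affymetrix mouse arrays, 3 in each of 4 groups taken from the sample titles. Where the descriptions differ from the titles, in the day of HM1 at day 6 and in the replicate numbers at day 6, the titles were followed. The authors deposited an intensity per probe set on a linear scale, scaled so that the mean of an array, trimmed by 2% at each end, is 150, as read from the values. The software was not given in the sources used here. Of 45101 probe sets, 64 are controls, 34945 have 1 gene symbol in the platform annotation, 932 have several and 9160 have none here. Symbols were matched to the assembly GRCm38.p6, which changed 0 of them. Of the probe sets with 1 symbol, the brightest of each gene was used, if its mean log2(intensity + 16) exceeded the 40th percentile over probe sets (4.80, an intensity of 11.9), which left 12280 genes. Group means were fitted over all 12 arrays with limma 3.58.1 (R 4.3.3; lmFit and eBayes; 8 residual and 4.46 prior degrees of freedom), with Benjamini-Hochberg adjustment over all genes in each of 5 comparisons. The fit was tested on simulated data. No normalization was added. Array medians of log2(intensity + 16) differed by up to 0.25, and by more without the added 16. That is as large as the smallest differences that passed. The number of arrays limits the precision. The alternatives were quantile normalization, centring on array or chromosome medians, filters, pseudocounts of 1 and 64, other uses of probe sets, fits of only the groups compared, replicate number as a block and leaving out each array. The members and lists were chosen with earlier results of these data known. Any of the 45 genes may be named, and from each wider list up to 4 genes with the largest differences among those that passed. Values per array are given for genes that passed with the largest differences and for Tfeb and Tfe3.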

Additional observations from a re-analysis of the deposited data

Results flagged for a closer look

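For 3 results the change from day 4 to day 6 differed between CAG150 and HM1 cells by the test of that difference itself (limma, interaction of line and day). For Ctsl the difference was -0.78 ± 0.13 SE (adjusted p = 0.0058), from a change of -0.78 ± 0.09 in CAG150 and 0.00 ± 0.09 in HM1 cells. For Gaa it was -0.50 ± 0.12 SE (adjusted p = 0.043), from -0.47 ± 0.09 in CAG150 and 0.03 ± 0.09 in HM1 cells, and it did not pass on leaving out any array. The other Gaa probe set had an interaction of -0.04 ± 0.15 SE (adjusted p = 0.96). For a Lamp2 probe set that was not the brightest of its gene it was -0.64 ± 0.12 SE (adjusted p = 0.022) in the fit of all probe sets, from 0.19 in CAG150 and 0.83 in HM1 cells.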

How the results depend on the processing

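Under the alternatives, the calls of Gaa, Ppt1 and Tfe3 at day 4 and of Ctsd and Ctsl at day 6 between the lines passed in every setting run, as did 17 of 20 for the change with time in CAG150 cells, 10 of 20 in HM1 cells, and Ctsl of the 2 interactions. At day 4, 3 genes were called with centring on chromosome medians, against 6, and at day 6 Nbr1 turned to -0.016 there. For the change with time in HM1 cells 13 genes were called with centring on array medians (8 higher and 5 lower), against 20. For the interaction 1 gene was called, against 2, with centring on array medians, no filter, a pseudocount of 1, every probe set fitted and the replicate block, and Gaa was the gene lost in each. Gaa was also lost with the mean of probe sets, at -0.27 (adjusted p = 0.27). The cause was not tested. Leaving out 1 array gave 4 to 6 calls at day 4, 4 to 7 at day 6 (4 without CAG150 replicate 3), 19 to 20 for time in CAG150 cells, 14 to 18 in HM1 cells and 1 for the interaction. The labels do not say what arrays with the same replicate number share. Same-numbered arrays correlated at -0.13 to 0.12 in their deviations, and in no comparison were all pairs over 0.1. With the replicate block the calls were 6 at day 4, 10 at day 6, 20 in CAG150, 20 in HM1 cells and 1 for the interaction. Each array correlated best with its own number in 2 of 3 cases at day 4, 1 at day 6, 3 in CAG150 and 1 in HM1 cells, a hint from the data and not the design. The interaction has no fit of only the groups compared, since it uses all of them. With 3 arrays a group, small differences of genes such as Nbr1 and Lamp2 sit at the edge of the threshold, and dim genes such as Tfeb are limited by their signal.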
